A study of Mus musculus with 12 samples.

Results

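The interferon response genes described here are a list of 36 genes known from other work to be switched on by interferons. The genes were listed by name, with no threshold on a value, but with earlier results of these data known. Of the 36 genes, 33 were measured, among 19937 genes tested on the arrays. Each gene was read from 1 probe set that carries a single gene symbol. Isg15 and Gbp2 were named only by probe sets that carry several symbols, and Ifi44 was not named by a probe set in the annotation used, so these 3 are not analysed here. The study concerns YAP1, an effector of the Hippo growth pathway, in rhabdomyosarcoma, a tumour with skeletal muscle features. All 12 samples came from cells or muscle of C57BL/6 mice that carried Myf5Cre, R26-LSL-rtTA and the transgene Col1a-Teto-hYAP1 S127A, in which doxycycline switches on a mutant human YAP1 in cells that have, or once had, Myf5 activity. Donor mice had doxycycline for 4 weeks, and cells from between their hindlimb muscle fibres were grafted into the gastrocnemius of NOD/SCID mice given doxycycline. There were 3 arrays of tumours at day 0 (TUM), 3 of tumours 3 days after doxycycline was removed (OFF3), 3 of tumours 6 days after (OFF6) and 3 of hindlimb muscle from mice with these same alleles that were left uninduced (CTL), which is not grafted tissue. NOD/SCID hosts lack mature T and B cells but keep macrophages and other myeloid cells, and each tumour sample is a mixture of graft and host cells.

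Type I and type III interferons bind their receptors and act through the kinases JAK1 and TYK2 to form a complex, ISGF3, which includes STAT2 and IRF9 and binds a DNA element called the ISRE. Interferon gamma acts through JAK1 and JAK2 and leads to binding at another element, the GAS. The genes switched on in this way encode sensors of foreign nucleic acid, proteins that block viruses, chemokines that draw lymphocytes, and brakes on the pathway itself.

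The ISRE gives these genes a shared letter pattern, and short stretches of 6 promoters are shown because these genes are described below and hold its core. The core searched was GAAA, then any 2 bases, then GAAA, or on the other strand TTTC, any 2 bases, TTTC. Windows ran from 250 bases before an annotated start to 50 bases after it, in RefSeq's table for build GRCm38.p6. Capitals mark the core, with overlapping matches joined, and every stretch is written 5′ to 3′ on the gene's own strand.
Stat2, chr10:128270261-128270300, plus strand: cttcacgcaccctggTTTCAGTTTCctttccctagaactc
Ifit1, chr19:34640770-34640828, plus strand: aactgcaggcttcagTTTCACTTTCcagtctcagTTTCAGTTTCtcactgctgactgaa
Ifit3, chr19:34583358-34583431, plus strand: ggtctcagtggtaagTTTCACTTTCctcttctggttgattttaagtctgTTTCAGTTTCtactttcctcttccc
Gbp3, chr3:142559984-142560029, plus strand: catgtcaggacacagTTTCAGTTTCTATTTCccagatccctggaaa
Bst2, chr8:71537572-71537617, minus strand: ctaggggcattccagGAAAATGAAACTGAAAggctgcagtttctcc
Cxcl10, chr5:92349078-92349117, minus strand: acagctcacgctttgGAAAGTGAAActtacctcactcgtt

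Ifit1 and Ifit3 each hold 2 separate cores, and in Gbp3 and Bst2 2 cores share their middle block. Of the 33 measured genes, 24 were in the promoter table with 28 windows, and 12 of the 24 (50%) held a core, against 3.99% of all 27025 genes in the table. The GAS core (TTC, any 3 bases, GAA, which reads the same way on both strands) was in 5 of the 28 windows (17.9%) and in 8.30% of all 32851 windows. These matches are letters in a window, not sites shown to be bound. Irf7, Irf9, Ifit2 and Cxcl9 were among the genes whose window held no ISRE core, which says only that those letters are not in this window.

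**Figure D1:**
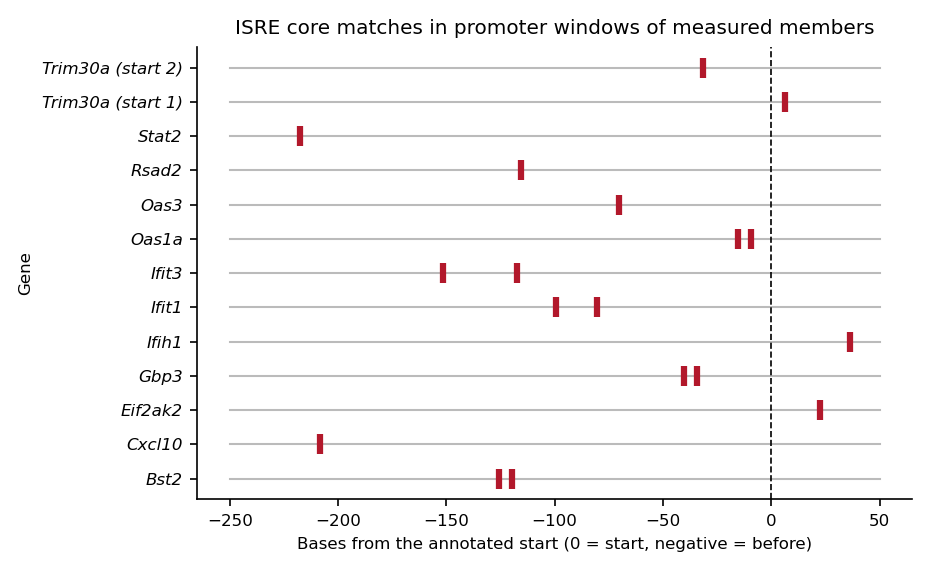
Each line is the promoter window of a measured gene that holds the ISRE core, and each tick is a match placed by its distance in bases from the annotated start. The matches of Gbp3 lie 45 and 39 bases before the start, while that of Stat2 lies 222 bases before it.

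Values are log2 of the deposited probe set intensity, and a difference of 1 is a 2-fold change in intensity. Differences were tested with limma across all genes with Benjamini-Hochberg adjustment, and a gene is said to have risen or fallen where the adjusted p was under 0.05. Errors of differences are standard errors from the model of all 12 arrays, with 3 arrays per group. No label states whether the 3 replicates of a group came from different mice, and p-values speak only of the spread among these samples, which may be technical. OFF6 replicate 2 correlated more closely with the OFF3 arrays (0.995) than with the other OFF6 arrays (0.991) over all genes. OFF3 replicate 3 was the lowest of its group for 26 of the 33 interferon genes. The arrays' median intensities lay between 86.7 and 93.0, and precision is limited by having 3 arrays per group.

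The interferon genes stood far higher in every tumour group than in muscle. All 9 tumour arrays lay above all 3 CTL arrays for 33 of 33 genes, which held for 24.3% of all genes tested. In CTL minus TUM all 33 were lower and 0 higher, against 30.3% and 45.9% of all genes. The median difference was -2.70, a 6.50-fold lower level in muscle, where the median over all genes was 0.15. The largest adjusted p among the 33 was 1.35e-08. In tumours 3 days off doxycycline 33 of 33 were still higher than in CTL (28.4% of all genes were higher and 41.4% lower), with a median of 2.90. After 6 days 33 of 33 were higher as well (28.1% of all genes higher, 36.1% lower), with a median of 3.09. Host strain, transplantation and doxycycline all differ between the tumours and the muscle together with the tumour itself, and cannot be told apart from it here. In bulk tissue, more interferon-responsive cells and more RNA per cell cannot be told apart either.

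The largest gap was that of Cxcl10, which encodes a chemokine for T and NK cells bearing the receptor CXCR3. Its log2 levels in CTL were 7.22, 6.53 and 7.96, and in TUM 12.06, 12.07 and 12.03, a 28.2-fold difference. The CTL arrays spread widely (SD 0.71), yet no CTL array came near a tumour array. Irf7, the factor that amplifies type I interferon production, was at 7.05, 7.36 and 7.63 in CTL and at 11.29, 11.38 and 11.37 in TUM, a 16-fold difference. Dhx58, which encodes the RNA sensor LGP2, was at 6.48, 6.07 and 5.95 in CTL and at 10.09, 10.13 and 10.19 in TUM, a 15.6-fold difference. For each of these 3 genes the muscle arrays lay far below the TUM arrays. Ifit1, which binds viral RNA caps, was at 7.00, 7.54 and 7.60 in CTL against 10.97, 11.01 and 11.13 in TUM (12.6-fold). Rtp4, an interferon-induced chaperone of receptors, was at 6.72, 7.28 and 7.25 in CTL against 10.38, 10.40 and 10.42 in TUM (9.96-fold). The smallest gap was the 3.16-fold one of Dtx3l, a ubiquitin ligase that pairs with Parp9.

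**Figure D2:**
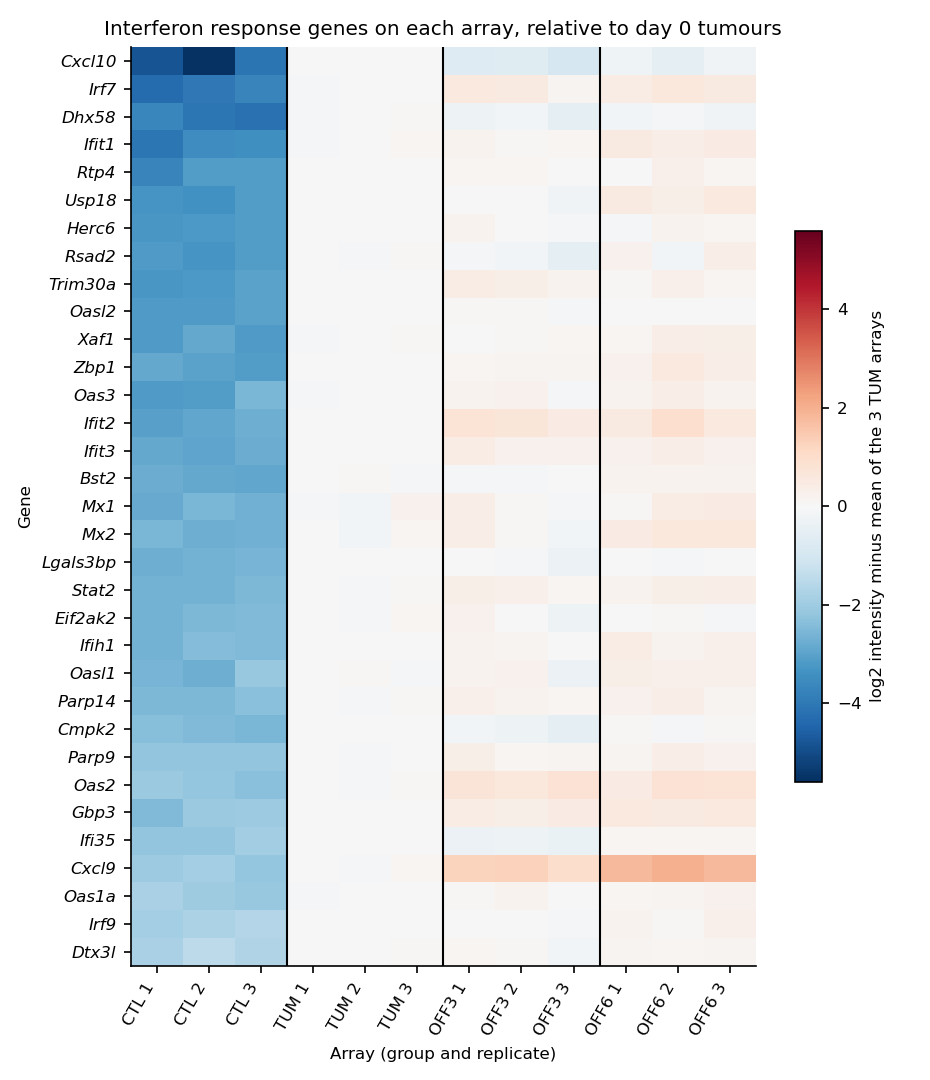
Each row is 1 of the 33 measured genes and each column 1 array, coloured by log2 intensity minus the mean of the 3 TUM arrays, with rows ordered by the gap between CTL and TUM. The CTL columns are blue throughout, down to Cxcl10, and the tumour columns are pale apart from Cxcl9.

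Removal of doxycycline left the genes near the level they had at day 0, with small rises in some. At day 3, 8 of the 33 rose and 3 fell (10 and 4 at an unadjusted p under 0.05), against 13.4% and 16.0% of all genes, with a median difference of 0.08 (0.02 over all genes). At day 6, 16 of the 33 rose and 0 fell, against 14.9% and 16.6%, with a median of 0.25 (0.05 over all genes). At an unadjusted p under 0.05 the day 6 counts were 18 higher and 0 lower. From day 3 to day 6, 6 rose and 0 fell, against 6.05% and 4.38%, with a median of 0.14 (0.02 over all genes). At an unadjusted p under 0.05 those counts were 12 and 0. Shares of all genes at the unadjusted threshold were not counted, so unadjusted counts here and below cannot be judged against them. The count of 6 rises depends on the arrays and the model. It was 3 without OFF3 replicate 2, OFF6 replicate 1 or OFF6 replicate 3 (587, 359 and 318 of all genes rose). Array weights gave 14 rises and 1 fall, with 4120 genes called higher and 4304 lower in all. A model of only these 6 arrays gave 0, and called 19 genes higher and 11 lower in all. Both changes from TUM share the TUM arrays. With the size of the change taken as a share of the gap between TUM and CTL, the median over the 33 genes was 4.77% at day 3 and 9.89% at day 6. Cxcl9 had the largest share (58.0% and 91.6%), followed by Oas2 (32.5% and 31.4%). Without OFF3 replicate 1 the day 3 count of rises was 5 (2570 of all genes rose). Without OFF3 replicate 3 the day 3 count of falls was 1 (2516 of all genes fell).

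**Figure D3:**
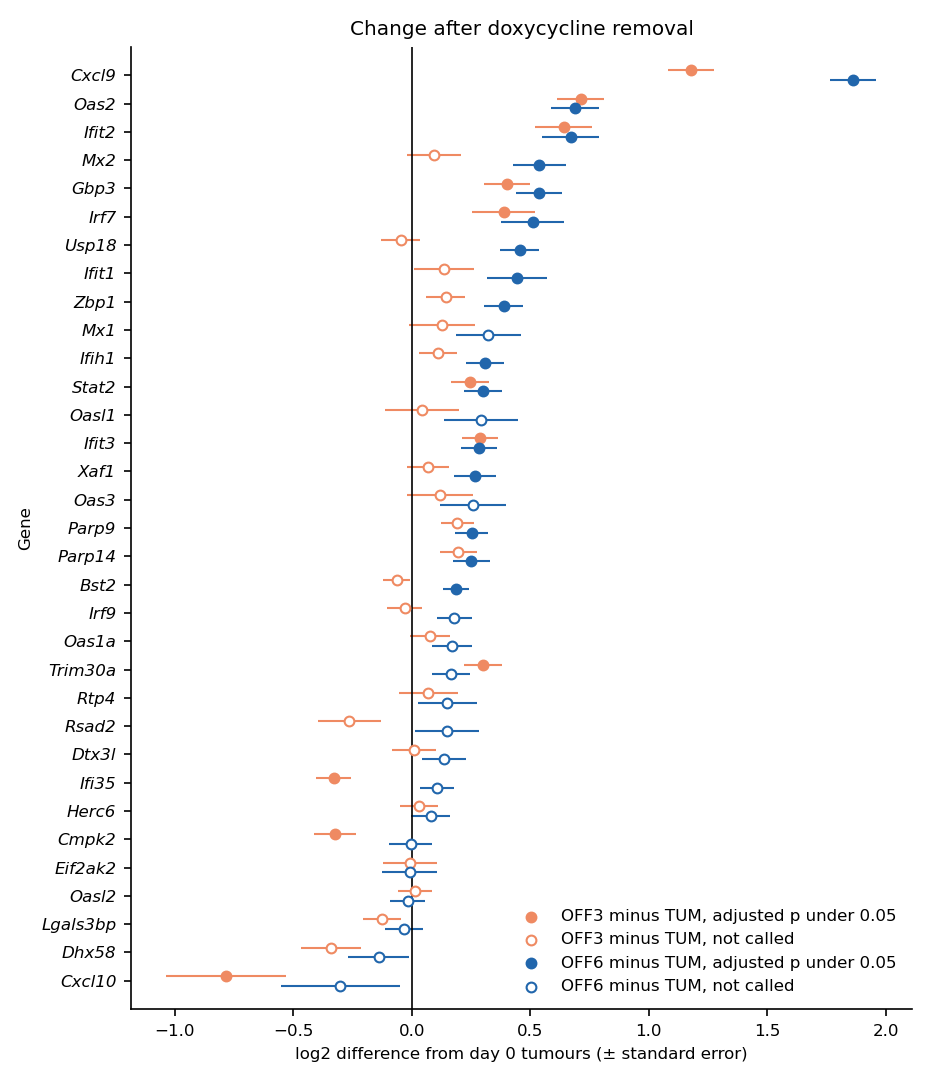
Points are the log2 differences of OFF3 (orange) and OFF6 (blue) from TUM for the 33 genes, with bars of 1 standard error and filled points for an adjusted p under 0.05. Cxcl9 lies far to the right at both times, Cxcl10 is lowest, and the other genes lie between -0.34 and 0.71.

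Among the 3 signalling factors, Stat2 and Irf7 rose at both times and Irf9 did not pass the test. Stat2, which encodes a subunit of ISGF3, was at 7.35, 7.32 and 7.48 in CTL, 10.00, 9.91 and 10.03 in TUM, 10.33, 10.25 and 10.10 in OFF3, and 10.15, 10.32 and 10.36 in OFF6. Every OFF3 and OFF6 array lay above every TUM array. The rises were 0.25 ± 0.08 (adjusted p = 0.0351) and 0.30 ± 0.08 (adjusted p = 0.012). Irf7 was at 11.87, 11.84 and 11.48 in OFF3 and at 11.77, 11.95 and 11.84 in OFF6, again with no overlap with TUM. Its rises were 0.39 ± 0.13 (adjusted p = 0.0433) and 0.51 ± 0.13 (adjusted p = 0.0101). The day 3 calls of both genes were lost when arrays were centred on their medians (adjusted p = 0.0602 for Irf7 and 0.0624 for Stat2) and when any array but OFF3 replicate 3 was left out (0.0556 to 0.145). The day 6 call of Stat2 was lost without TUM replicate 2 (0.053) or OFF6 replicate 3 (0.0538). Irf9, which gives ISGF3 its DNA contact, was at 7.95, 8.07 and 8.21 in CTL, 9.81, 9.85 and 9.87 in TUM, 9.88, 9.82 and 9.75 in OFF3, and 10.04, 9.92 and 10.11 in OFF6. Its OFF3 arrays spanned the TUM arrays and its OFF6 arrays lay above them. The differences from TUM were -0.03 (95% interval -0.19 to 0.13) and 0.18 (0.02 to 0.34, adjusted p = 0.0927). Without OFF6 replicate 2 the day 6 difference of Irf9 was 0.23, with an adjusted p of 0.0344.

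Of the 3 sensors, Ifih1 and Zbp1 rose at day 6 and none was called at day 3. Ifih1, which encodes the double-stranded RNA sensor MDA5, rose by 0.31 ± 0.08 (adjusted p = 0.0104), from a TUM mean of 10.20 ± 0.03 (SD) to 10.51 ± 0.10. Zbp1, a sensor of Z-form nucleic acid that can start necroptosis, rose by 0.39 ± 0.08 (adjusted p = 0.00259), from 10.10 ± 0.03 (SD) to 10.49 ± 0.14. Its OFF3 arrays also lay above every TUM array, with a difference of 0.14 that was not called (adjusted p = 0.231). Dhx58 stood lower than in TUM on each OFF3 array (9.84, 9.97 and 9.57), with a difference of -0.34 that missed the threshold (adjusted p = 0.0648). On the OFF6 arrays it was at 9.97, 10.08 and 9.93, and its difference was -0.14 (95% interval -0.42 to 0.14).

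The antiviral effectors were the largest group, with 14 measured genes. At day 3, 3 rose and 1 fell, close to the 13.4% and 16.0% of all genes, and at day 6, 6 rose and 0 fell, against 14.9% and 16.6%. Oas2, one of the enzymes whose 2′-5′ oligoadenylates activate RNase L, was at 7.25, 7.16 and 6.98 in CTL, 9.30, 9.27 and 9.38 in TUM, 10.06, 9.89 and 10.14 in OFF3, and 9.80, 10.14 and 10.07 in OFF6. It was the effector with the largest rise at both times, 0.71 ± 0.10 (adjusted p = 0.000171) and 0.69 ± 0.10 (adjusted p = 0.000195), with no overlap with TUM. Its relatives of the same enzyme family did not pass the test at either time. Their day 6 differences were 0.17 (95% interval -0.01 to 0.35) for Oas1a, 0.26 (-0.05 to 0.56) for Oas3, 0.29 (-0.05 to 0.63) for Oasl1 and -0.02 (-0.18 to 0.14) for Oasl2. Oas2 and Oas3 are neighbouring genes, with 0 other protein-coding genes between them.

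The Ifit genes encode proteins that bind foreign RNA and hinder its translation, and all 3 measured ones rose at day 6. Ifit2 was at 6.85, 7.00 and 7.16 in CTL, 9.89, 9.88 and 9.93 in TUM, 10.68, 10.58 and 10.36 in OFF3, and 10.41, 10.85 and 10.45 in OFF6. Its rises were 0.64 ± 0.12 (adjusted p = 0.00147) and 0.67 ± 0.12 (adjusted p = 0.000966), and no OFF3 or OFF6 array reached down to a TUM array. Its neighbour Ifit3, whose promoter holds 2 of the cores shown above, rose by 0.29 ± 0.08 at day 3 and 0.28 ± 0.08 at day 6 (adjusted p = 0.0116 at both). Ifit1, which also holds 2 cores, was at 11.23, 11.12 and 11.16 in OFF3 and at 11.54, 11.40 and 11.50 in OFF6. It was not called at day 3 (0.13, 95% interval -0.14 to 0.41) and rose by 0.44 ± 0.13 at day 6 (adjusted p = 0.0167).

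Mx2, a dynamin-like GTPase, was at 5.03, 4.87 and 4.92 in CTL, 7.64, 7.48 and 7.71 in TUM, 7.98, 7.66 and 7.46 in OFF3, and 8.06, 8.18 and 8.20 in OFF6. The OFF3 arrays overlapped TUM and the OFF6 arrays lay above both. It rose by 0.54 ± 0.11 from TUM (adjusted p = 0.00267) and by 0.45 ± 0.11 from OFF3 (adjusted p = 0.0281). The second call was lost without OFF3 replicate 2 or 3, or OFF6 replicate 1 or 3 (adjusted p = 0.0673 to 0.123). Its paralog Mx1 had a day 6 difference of 0.32 (95% interval 0.02 to 0.63, adjusted p = 0.101), and whether it differed from Mx2 was not tested. Bst2, or tetherin, which holds budding virus at the cell surface, was at 8.07, 8.02 and 7.97 in CTL, 10.88, 10.92 and 10.81 in TUM, 10.80, 10.76 and 10.86 in OFF3, and 11.05, 11.07 and 11.05 in OFF6. Its small rise of 0.19 ± 0.06 (adjusted p = 0.0239) exceeded the spread of these tight arrays.

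Cmpk2 and Rsad2 are neighbours on chromosome 12, and Rsad2 encodes viperin, which makes an antiviral nucleotide with substrate supplied by CMPK2. Cmpk2 was at 7.32, 7.19 and 7.13 in CTL, 9.68, 9.69 and 9.68 in TUM, 9.52, 9.40 and 9.16 in OFF3, and 9.74, 9.55 and 9.74 in OFF6. It fell by 0.32 ± 0.09 at day 3 (adjusted p = 0.0159), and rose by 0.32 ± 0.09 from day 3 to day 6 (adjusted p = 0.0423), to a mean equal to that of TUM at 9.68. Without OFF3 replicate 3 the day 3 fall was not called (-0.23, adjusted p = 0.0624), and the later rise lost its call without OFF3 replicate 2 or 3, or OFF6 replicate 1 or 3 (adjusted p = 0.089 to 0.175). Rsad2 had differences of -0.26 (95% interval -0.55 to 0.03) at day 3 and 0.15 (-0.14 to 0.44) at day 6, neither called. Eif2ak2, the gene of the kinase PKR that halts translation, differed from TUM by -0.01 at each time (95% interval -0.26 to 0.24).

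Of the genes that work with ISG15, a small protein attached to others during the response, Usp18 and Herc6 were measured. Usp18, which removes ISG15 and also blocks the receptor subunit IFNAR2, was at 8.15, 8.08 and 8.31 in CTL, 11.48, 11.46 and 11.42 in TUM, 11.49, 11.46 and 11.26 in OFF3, and 11.96, 11.79 and 11.98 in OFF6. The OFF6 arrays lay above all others. It rose by 0.45 ± 0.08 from TUM (adjusted p = 0.00101) and by 0.50 ± 0.08 from OFF3 (adjusted p = 0.00458), with no call at day 3 (-0.05, 95% interval -0.23 to 0.13). Herc6, the mouse ligase for ISG15, did not pass the test (0.03 at day 3 and 0.08 at day 6, with a day 6 interval of -0.10 to 0.26).

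Gbp3, a guanylate-binding GTPase of the defence against microbes inside cells, was at 6.81, 7.21 and 7.25 in CTL, 9.29, 9.25 and 9.28 in TUM, 9.71, 9.59 and 9.74 in OFF3, and 9.84, 9.79 and 9.80 in OFF6. It rose by 0.40 ± 0.10 (adjusted p = 0.0075) and 0.54 ± 0.10 (adjusted p = 0.00101), each OFF6 array lying above each OFF3 array, a step that was not called (0.13, 95% interval -0.08 to 0.35). Parp9 and Parp14, ADP-ribosyltransferase family members next to Dtx3l, rose at day 6 by 0.25 ± 0.07 (adjusted p = 0.0144) and 0.25 ± 0.08 (adjusted p = 0.0273). At day 3 they already stood 0.19 and 0.20 above TUM with no overlap of arrays, differences that missed the threshold (adjusted p = 0.0572 and 0.0848). Dtx3l itself was not called at day 6 (0.13, 95% interval -0.07 to 0.33).

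Of the 5 other induced genes, 1 rose and 1 fell at day 3, and 1 rose at day 6, counts close to the shares of all genes (13.4% and 16.0%, then 14.9% higher). Ifi35, an interferon-induced leucine zipper protein, was at 7.58, 7.55 and 7.83 in CTL, 9.76, 9.80 and 9.75 in TUM, 9.42, 9.48 and 9.42 in OFF3, and 9.89, 9.86 and 9.88 in OFF6. All OFF3 arrays lay below TUM and all OFF6 arrays above it, with a fall of 0.33 ± 0.07 at day 3 (adjusted p = 0.00393), a rise of 0.44 ± 0.07 from day 3 to day 6 (adjusted p = 0.00461), and a day 6 difference from TUM of 0.11 that was not called (95% interval -0.05 to 0.26). Trim30a, which restrains NF-kB signalling downstream of Toll-like receptors, rose at day 3 by 0.30 ± 0.08 (adjusted p = 0.0134) and was 0.17 above TUM at day 6 (adjusted p = 0.148). Xaf1, a binding partner of the caspase inhibitor XIAP, rose at day 6 by 0.27 ± 0.09 (adjusted p = 0.0348). Rtp4 was at 10.50, 10.51 and 10.40 in OFF3 and at 10.44, 10.69 and 10.53 in OFF6, differences of 0.07 and 0.15 that were not called. Lgals3bp, a secreted glycoprotein, differed by -0.13 and -0.03, also without a call.

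The chemokines Cxcl9 and Cxcl10 use the same receptor and are close neighbours, with 1 protein-coding gene between them, but moved in opposite directions at day 3. Cxcl9, which is induced mainly by interferon gamma, was at 7.52, 7.68 and 7.39 in CTL, 9.54, 9.49 and 9.66 in TUM, 10.82, 10.85 and 10.56 in OFF3, and 11.36, 11.55 and 11.37 in OFF6. The 4 groups do not overlap at all. Its rise was 1.18 ± 0.10 at day 3 (2.26-fold, adjusted p = 2.07e-06) and 1.86 ± 0.10 at day 6 (3.64-fold, adjusted p = 5.32e-08), with a further 0.68 ± 0.10 between these times (adjusted p = 0.00223). It was the largest change of the 33 genes in each of the 3 comparisons among tumours. Cxcl10, which responds to type I interferon and interferon gamma, was at 11.33, 11.38 and 11.11 in OFF3 and at 11.81, 11.57 and 11.87 in OFF6. Every OFF3 and every OFF6 array lay below every TUM array. It fell by 0.78 ± 0.25 at day 3 (1.72-fold, adjusted p = 0.0328), a call that was lost when any 1 of the 6 arrays was left out (0.0595 to 0.108). Its day 6 difference was -0.30 (95% interval -0.85 to 0.24, adjusted p = 0.404). The wide CTL arrays enter that error, and in a model of only the TUM and OFF6 arrays the adjusted p was 0.0322.

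The difference in log2 level between Cxcl9 and Cxcl10 on the same array, a measure chosen after the values were seen, was -2.49 ± 0.11 (SD, n = 3) in TUM, -0.52 ± 0.02 in OFF3 and -0.32 ± 0.27 in OFF6. Since probe sets differ in how brightly they bind, only its change is read. It rose by 1.96 from TUM to OFF3 and by 2.17 from TUM to OFF6, and the arrays do not overlap. The exact two-sided permutation test gave p = 0.1 for each, the smallest value 3 against 3 arrays allow.

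**Figure D4:**
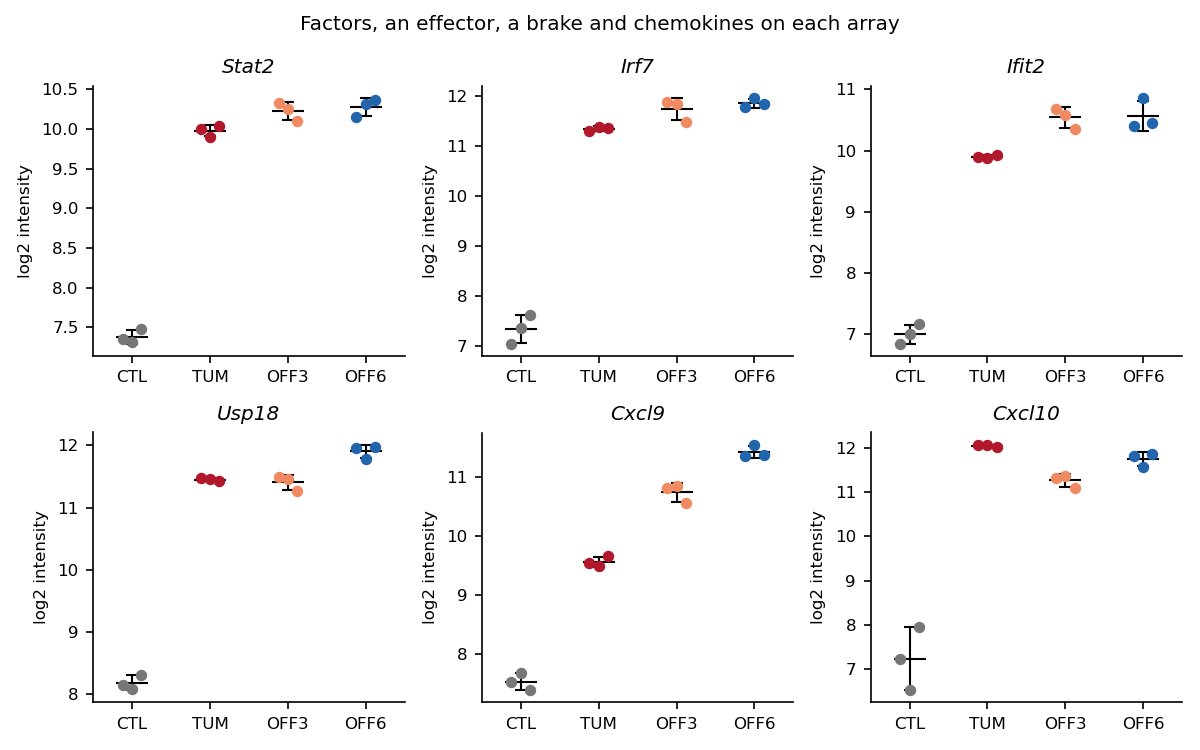
Points are the 3 arrays of each group on a log2 intensity axis, with the mean as a horizontal line and bars of 1 SD, for Stat2, Irf7, Ifit2, Usp18, Cxcl9 and Cxcl10; the axes do not start at 0. CTL lies far below the tumours in every panel, Cxcl9 climbs from TUM through OFF3 to OFF6, and Cxcl10 is highest in TUM.

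By their calls, the 33 genes fell into 5 patterns after doxycycline removal. The shares of all genes in these joint patterns were not counted, so the pattern counts cannot be judged against them. Both changes share the TUM arrays, which ties the calls at the 2 times to each other. The patterns rest on the threshold, and a gene without a call may still have changed. The genes higher at both times were 7, namely Cxcl9, Gbp3, Ifit2, Ifit3, Irf7, Oas2 and Stat2. Another 9 were called higher only at day 6, namely Bst2, Ifih1, Ifit1, Mx2, Parp9, Parp14, Usp18, Xaf1 and Zbp1, of which Bst2, Mx2 and Usp18 were also higher at day 6 than at day 3. Trim30a was called higher only at day 3, and Cmpk2, Cxcl10 and Ifi35 were lower at day 3 and not called at day 6. The other 13 had no call at either time. Of the 12 genes with the promoter core 6 rose at day 6, and of the 12 whose windows held none 4 rose, with medians of 0.22 and 0.16. Of all genes 14.9% rose. From day 3 to day 6 the counts were 1 and 3 (6.05% of all genes rose), with medians of 0.14 and 0.16. In CTL minus TUM all 12 of each kind were lower (30.3% of all genes were), with medians of -2.86 and -2.56.

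The rest of the pathway was read from a list of 52 other genes, of which 48 were measured. The other 4 are not analysed here. In OFF3 minus TUM 6 of the 48 were higher and 5 lower (median 0.07), where 13.4% and 16.0% of all genes were. In OFF6 minus TUM 2 were higher and 4 lower (median 0.05), below the 14.9% and 16.6% of all genes. Of the 12 measured genes of the interferons themselves, limma called 0 at either time, with 1 higher at day 3 and 2 higher at day 6 at an unadjusted p under 0.05, and in CTL minus TUM 8 were higher and 0 lower, where 45.9% of all genes were higher. Their median in CTL minus TUM was 0.28, against 0.15 over all genes. These probe sets were dim on average. The 12 together summed to 890 to 978 in CTL and 682 to 791 in TUM, where array medians per probe set were 86.7 to 93.0. Over genes above the median level alone, the median in CTL minus TUM was -0.22. Whether the higher values in CTL reflect more interferon RNA was not tested. Ifnb1 stood at a mean of 4.92 ± 0.04 (SD) in CTL, 4.79 ± 0.05 in TUM, 4.74 ± 0.11 in OFF3 and 4.88 ± 0.06 in OFF6, and Ifng at 5.71 ± 0.06, 5.42 ± 0.07, 5.48 ± 0.17 and 5.53 ± 0.02. Of the 6 receptor genes, 4 were lower and 1 higher in CTL than in TUM, against 30.3% and 45.9% of all genes. The lower ones included Ifnar1 (-1.71) and Ifnar2 (-2.45), the chains of the type I receptor. The higher one was Ifngr2 (0.53). Ifngr1, a chain of the interferon gamma receptor, fell by 0.51 ± 0.10 at day 6 (adjusted p = 0.00181).

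Among the signal transducers and sensors, changes went both ways. Irf8, a factor of myeloid and dendritic cells, rose at day 3 by 0.78 ± 0.18 (adjusted p = 0.00596). The endosomal sensor gene Tlr9 rose by 0.70 ± 0.15 at day 3 (adjusted p = 0.00337) and 0.56 ± 0.15 at day 6 (adjusted p = 0.013), and Tlr7 rose by 0.58 ± 0.18 at day 3 (adjusted p = 0.0283). The kinase gene Tyk2 rose by 0.27 ± 0.08 at day 6 (adjusted p = 0.0161). The DNA sensor gene Cgas fell by 0.50 ± 0.11 and 0.48 ± 0.11 (adjusted p = 0.00373 and 0.00461), and its adaptor Sting1 fell by 0.43 ± 0.13 at day 6 (adjusted p = 0.0226). Of the negative regulators, Socs3 and Ptpn2 fell at day 3 by 0.41 ± 0.09 (adjusted p = 0.00319) and 0.31 ± 0.09 (adjusted p = 0.0196).

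Marker lists of other cell types differed between the groups too, some in the direction of the interferon genes and some not. The counts of each list stand beside these shares of all genes. In CTL minus TUM, 45.9% were higher and 30.3% lower. At day 6, 14.9% rose and 16.6% fell, and from day 3 to day 6, 6.05% rose and 4.38% fell. Some counts below lie near these shares. Of 18 macrophage markers 17 were lower in CTL than in TUM, with a median of -2.97, and their summed intensity ran from 5558 to 6222 in CTL, 37927 to 39313 in TUM, 44817 to 46290.0 in OFF3 and 33161 to 45882 in OFF6. At day 3, when 8 interferon genes rose and 3 fell, 5 of these 18 markers rose and 2 fell (median 0.33). Of all genes 13.4% rose and 16.0% fell. At day 6, when 16 interferon genes were higher, 0 of these 18 markers were called higher and 3 lower (median -0.03). From day 3 to day 6, 0 were higher and 4 lower (median -0.31). The high OFF6 macrophage sum was that of replicate 2. Without that array 15 interferon genes rose at day 6, 14 of them among the 16, where 3222 of all genes rose. Of 10 dendritic cell markers 6 rose at day 3 and 8 at day 6, with sums of 2076 to 2153 in CTL, 3038 to 3092 in TUM, 3768 to 4369.8 in OFF3 and 3770.1 to 4242 in OFF6. These included Clec9a (1.48 and 1.02) and Xcr1 (1.39 and 0.82), markers of cross-presenting dendritic cells, and Siglech, a marker of plasmacytoid dendritic cells, which rose at day 6 by 0.89 ± 0.21 (adjusted p = 0.00522). Ccr9 had the lowest day 3 difference of that list, -0.29, which was not called. In CTL minus TUM 3 of the 10 dendritic cell markers were higher and 4 lower (median -0.46). Of 13 T, B and NK cell markers 5 rose and 2 fell at day 3, and 4 rose and 2 fell at day 6, with sums of 641 to 672, 1776 to 1915, 1543 to 2331 and 1541 to 2339 in the same order of groups. The low OFF3 sum was that of replicate 3 alone, and the high OFF6 sum that of replicate 2 alone. In CTL minus TUM 4 of these 13 were higher and 7 lower. The T and B cell markers Cd3e (0.63), Cd8a (0.22), Ms4a1 (0.15) and Cd79a (0.43) had higher means in CTL than in TUM. The median over all genes was 0.15, so Ms4a1 lay at it and Cd8a near it. Cd4 was lower (-2.27), and Cd3g, also a T cell marker of that list, is not given here. Of the 13 markers, 6 had a higher mean in CTL. Whether these differences reflect numbers of T and B cells was not tested. Among tumours the NK cell marker Ncr1 rose by 0.98 ± 0.25 at day 3 (adjusted p = 0.0107) and 0.84 ± 0.25 at day 6 (adjusted p = 0.0227). Prf1, the gene of the cytotoxic pore protein perforin, fell by 1.44 ± 0.12 at day 3 (adjusted p = 2.48e-06) and 1.69 ± 0.12 at day 6 (adjusted p = 5.35e-07), the largest change of that list. Of 10 endothelial markers 10 rose at day 3 and 8 at day 6 (medians 0.60 and 0.35), with 10 higher in CTL than in TUM. Of 10 fibroblast markers 8 rose at both times, with 1 lower at day 6 (medians 1.04 and 0.77), and 6 were higher and 3 lower in CTL than in TUM. Skeletal muscle markers summed to 84635 to 87929 in CTL and 23246 to 25154 in TUM, the opposite direction to the interferon genes, and all 10 rose at both times, to 43385 to 52838 in OFF3 and 43933 to 46657 in OFF6. Of 10 myogenic tumour cell markers 7 were lower and 2 higher in CTL than in TUM (median -2.19). Of the 10, 5 rose and 2 fell at day 3, and 7 rose and 2 fell at day 6 (medians 0.26 and 0.58). Of 10 measured neutrophil and monocyte markers 3 rose at day 3 and 2 at day 6, with 0 falls. In CTL minus TUM 5 were higher and 3 lower, near the shares of all genes, with a median of 0.18. Their sums ran from 442 to 482 in CTL, 1136 to 1145 in TUM, 1689 to 1807 in OFF3 and 1343 to 2256 in OFF6. These sums were lower in CTL although the median was above 0, and a sum weighs bright genes most. The lowest CTL minus TUM difference was that of Plac8, -3.36. The high OFF6 sum was that of replicate 2. The values hold no zeros, since the deposited scale has a floor above 0. The part of these cell types in the interferon genes' levels was not tested.

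**Figure D5:**
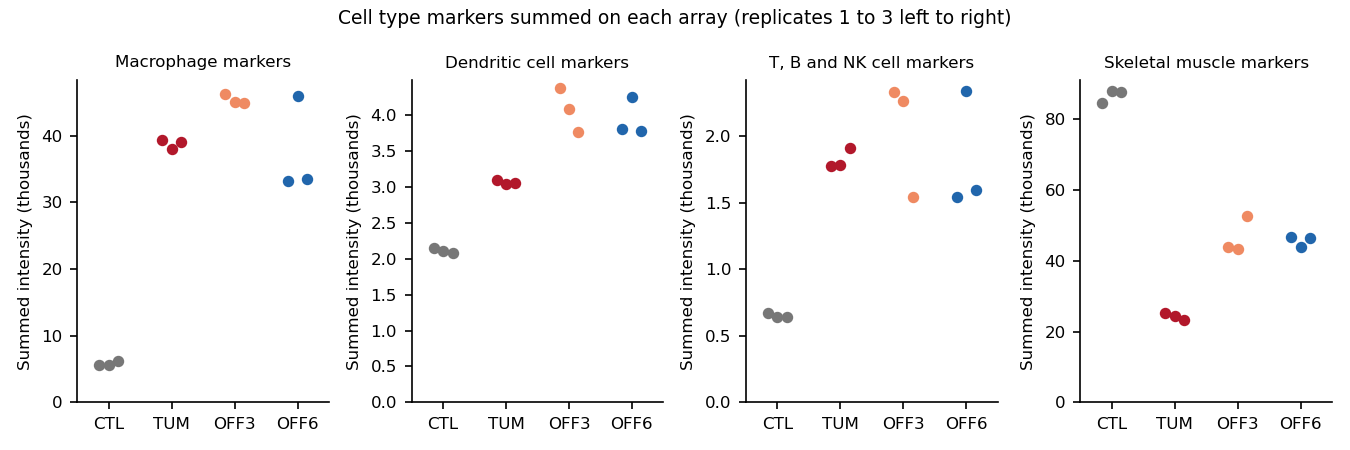
Points are the summed linear intensities of 4 marker lists on a scaled axis that is labelled with its unit on each array, with replicates 1 to 3 from left to right and axes that start at 0. Macrophage sums are lowest in CTL and highest in OFF3 and OFF6 replicate 2, dendritic cell sums are higher in OFF3 and OFF6 than in TUM, and muscle sums are highest in CTL.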

How the data were processed

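Total RNA of 4 groups, 3 samples each, was hybridised to 12 one-colour Affymetrix arrays. The authors deposited an intensity per probe set, not on a log scale, made with RMA per the submitters' processing notes, its version not given in the sources used here. RMA normalises arrays to one another, which assumes like overall distributions. Log2 was taken first. Of 34760 probe sets, 21640 carried 1 symbol and were used, and where a gene had several the brightest on average was taken, leaving 19937 genes with no filter on low values. A linear model with 4 group means was fitted with limma 3.58.1 (lmFit, eBayes) in R 4.3.3, for 6 comparisons with two-sided tests, each adjusted by Benjamini-Hochberg over all genes. The 36 genes and the lists of pathway genes and markers were chosen with earlier results of these data known. Every measured gene of the 36 is described. Array by array values are given for up to 5 of the largest called changes each way in 4 of the comparisons and for Stat2, Irf9, Irf7, Cxcl9 and Cxcl10, and, chosen after their values were seen, for Bst2. For the pathway list, up to 3 of the largest called changes each way are named; the interferon and receptor genes and the markers named besides were chosen after their values were seen. Motifs were searched with Python 3.11.15. The fit was also run on simulated data with independent normal noise and changes in a small part of the genes. That run held no unlike arrays and no wide changes, so it cannot speak for the counts here. Alternatives changed probe choice, filter, scaling, variance model, weights, block, threshold, fold and the arrays included.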

Additional observations from a re-analysis of the deposited data

How the results depend on the processing

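The 33 genes stayed lower in CTL than in each tumour group with each array left out, and under the other settings that test all 33. Among tumours the counts moved more. Leaving out 1 array at a time gave 5 to 8 rises and 1 to 3 falls at day 3, 11 to 15 rises and 0 falls at day 6, and 3 to 8 rises from day 3 to day 6. In the same fits 2028 to 2570 of all 19937 genes rose and 2494 to 3259 fell at day 3. At day 6, 2226 to 3222 of all genes rose, and 318 to 2401 rose from day 3 to day 6. Array weights gave 15 rises and 6 falls at day 3, where 6181 of all genes rose and 4994 fell. From day 3 to day 6 they gave 14 rises and 1 fall, where 4120 of all genes rose and 4304 fell. With only the 6 arrays compared, day 6 had 1 fall (Cxcl10) and the step from day 3 to day 6 had 0 rises by limma (6 in the model of all arrays, or 12 there at an unadjusted p under 0.05), with 19 genes called higher and 11 lower of all 19937. At an adjusted p under 0.01 there were 4 rises and 1 fall at day 3, 7 rises at day 6 and 3 from day 3 to day 6. Of all genes, 1723 rose and 2208 fell at day 3, 1931 rose at day 6 and 324 from day 3 to day 6. With at least a 1.5-fold change there were 3 rises and 1 fall, 3 rises, and 1 rise, and all genes were not counted at that fold. The fit with a replicate block gave 6 rises and 3 falls at day 3, 15 rises at day 6 and 6 from day 3 to day 6. In that fit 2495 of all genes rose and 2981 fell at day 3, 2770 rose at day 6 and 965 from day 3 to day 6. Same-numbered deviations from the group means correlated at -0.39 to 0.25, with 3 of 18 over 0.1. This check showed no regular pairing by replicate number, and it cannot show that there was none. Differences near 0 changed sign. At day 3 that of Irf9 was 0.027 after quantile normalisation, 0.0022 without OFF3 replicate 3, and from -0.061 to 0.0022 over the arrays left out. From day 3 to day 6 that of Irf7 was -0.0022 with array weights and from -0.0013 (without OFF3 replicate 3) to 0.19, and that of Stat2 from -0.0100 (without the same array) to 0.12. Centring on medians moved the CTL minus TUM median over all genes from 0.15 to 0.29, with 11925 genes higher and 5293 lower against 9161 and 6038. With that centring 4665 genes were higher and 12243 lower in OFF3 than in CTL (5657 and 8253 without it), and 4486 and 12001 in OFF6 (5602 and 7188), with all 33 interferon genes higher in both. The cause of these moves was not tested.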
